A study of Mus musculus with 12 samples.

Results

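The genes described here are 38 components of B cell receptor signalling: receptor subunits, co-receptors, inhibitory receptors, phosphatases, kinases, adaptors and the signalling enzymes and transcription factors downstream of them. They were taken by gene symbol from a table of 28188 gene symbols, and all 38 symbols were present. Their RNA was measured by poly(A)-selected sequencing of splenic B cells and splenic dendritic cells from mice aged 12 weeks. The control strain was NOD, in which autoimmune diabetes arises without treatment, and the other strain, NOD.Idd2, has the NOD background with Idd2, a diabetes susceptibility locus, from the B10 strain. Each strain gave 3 libraries per cell type, which makes 4 groups and 12 libraries, and neither a treatment nor the way the cells were isolated is named in the labels. The study asks what the Idd2 locus does to gene expression, so the strains were compared within each cell type, and the cell types were compared within each strain.

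The B cell receptor is a membrane immunoglobulin that signals through the paired chains CD79A and CD79B. Antigen binding leads Src-family kinases to phosphorylate those chains, SYK docks on them, and the adaptor BLNK then brings BTK and phospholipase C-gamma 2 together, which raises calcium and activates protein kinase C-beta, NF-kB and NFAT. Inhibitory receptors such as CD22 and CD72 recruit the phosphatase SHP-1 and hold this response in check. Dendritic cells lack the receptor itself but use many of the same kinases and phosphatases downstream of Fc receptors, integrins and lectins.

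Depth was 40344883 to 44632276 counts in the 6 B cell libraries and 8663421 to 30337812 in the 6 dendritic cell libraries, with NOD.Idd2 dendritic cell replicate 3 the shallowest. All 38 genes passed the filter on low counts in each comparison, and the least abundant had 346 counts over the 6 dendritic cell libraries. The sums of B cell and of dendritic cell markers went with the labels. The 13 B cell markers, 4 among the 38, summed to 21448 to 24713 CPM (counts scaled to a common library total) in B cells. In dendritic cells they summed to 1035 to 1753. The sum of 12 dendritic cell markers was 185 to 219 CPM in B cells and 5374 to 5863 in dendritic cells. The 14 monocyte and macrophage markers summed to 69.7 to 80.5 CPM in B cells and 1597 to 2122 in dendritic cells. The sum of the 10 plasmacytoid dendritic cell markers was higher in B cells, at 1281 to 1379 CPM against 286 to 379 in dendritic cells. The part of other cells in the libraries was not tested. In both strains B cell replicate 3 stood apart from replicates 1 and 2, so the B cell results are also given without it where that mattered. The sex of the cells also differed between the cell types, since Xist was at 1564 to 2088 CPM in B cells and at most 0.154 in dendritic cells, whereas the Y-linked Ddx3y was at 0 and at 239 to 306. Each difference between cell types is therefore also a difference between sexes, and the 2 cannot be told apart. The same holds for a strain effect that differs between the cell types. Whether the libraries came from separate animals is not in the labels, so every p-value rests on the spread among libraries, which may be technical. Differences are log2 values with their standard error (SE). A gene is said to differ when its adjusted p, from the quasi-likelihood test of edgeR, adjusted over all genes tested by the Benjamini-Hochberg method, was at or under 0.05. Exons of 6 of the 38, namely Cd81, Cd22, Cd72, Ptpn6, Lyn and Lcp2, share bases with a gene on the opposite strand, and the use of strand in counting is not given, so reads of the partners cannot be told apart.

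In NOD mice Cd79a, Blnk and Cd79b had the largest differences toward lower levels in dendritic cells, and Lcp2 the largest toward higher levels. Of the 38 genes 34 differed, 13 higher and 21 lower in dendritic cells, beside 76.4% of all 16588 genes tested, with 37.7% higher and 38.7% lower. A difference of at least 4-fold was seen for 11 of the 38, which is near the 25.7% of all genes. Of these 8 were lower in dendritic cells, namely Cd79a, Cd79b, Blnk, Dok3, Bank1, Cd38, Blk and Cd22, and 3 were higher, namely Lcp2, Cd5 and Pirb, beside 9.87% and 15.8% of all genes. The median difference of the 38 was -0.31, against -0.04 over all genes. In NOD.Idd2 again 34 differed, 13 higher and 21 lower, beside 75.7% of all genes, with 36.7% higher and 38.9% lower. There 10 of the 38 differed by at least 4-fold beside 25.6% of all genes, 9 lower, including Cd72, and 1 higher, Lcp2, beside 9.93% and 15.7%. In both strains 33 differed in the same direction, while Lyn passed in NOD alone (0.17) and Rel in NOD.Idd2 alone (0.19). With the replicate number as a block 34 passed in each strain, beside 73.2% of all genes in NOD and 74.5% in NOD.Idd2. In bulk RNA, fewer cells that express a gene and less RNA per cell cannot be told apart.

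**Figure D1:**
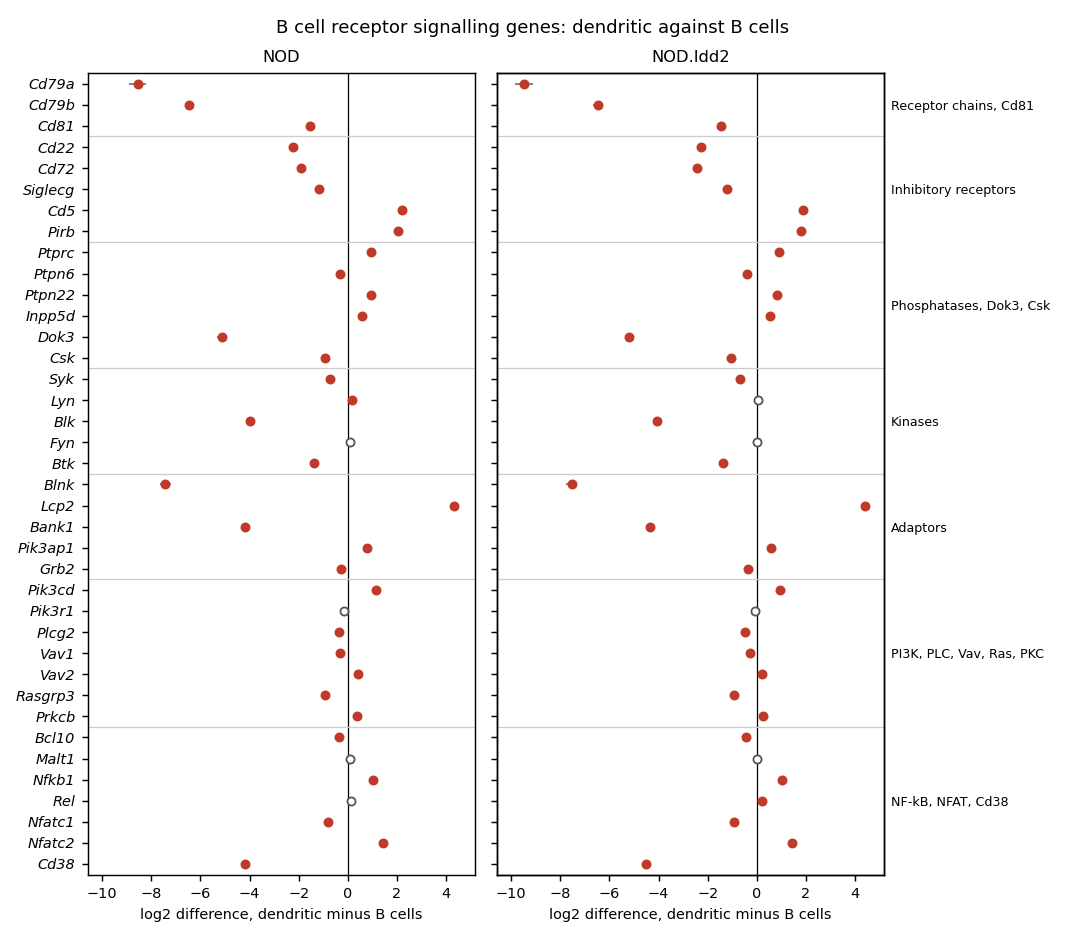
Log2 difference between dendritic cells and B cells for each of the 38 genes, grouped by role, in NOD (left) and NOD.Idd2 (right). Points are fitted differences from 3 libraries per group, bars are 1 SE, and filled red points have an adjusted p at or under 0.05. Cd79a, Blnk and Cd79b lie farthest to the left in both strains and Lcp2 farthest to the right.

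The receptor's signalling chains had 2 of the 3 largest differences. Cd79a, which encodes Ig-alpha and lies at chr7:24897381-24902197 (GRCm38), was at 1606, 1622 and 1432 CPM in NOD B cells and at 3.16, 1.93 and 7.32 in NOD dendritic cells. Its levels in NOD.Idd2 were 1811, 1698 and 1554 CPM in B cells and 2.57, 1.70 and 3.64 in dendritic cells. The cell types did not overlap, and replicate 3 was the highest dendritic cell library in both strains. The log2 difference was -8.55 (SE 0.35) in NOD and -9.48 (SE 0.38) in NOD.Idd2, with edgeR adjusted p-values of 1.31e-10 and 1.09e-10. Cd79b, the gene of the partner chain Ig-beta, was at 1318, 1259 and 1393 CPM in NOD B cells and at 14.8, 10.8 and 19.4 in NOD dendritic cells. In NOD.Idd2 it was at 1412, 1316 and 1462 CPM in B cells and at 16.8, 14.6 and 15.7 in dendritic cells, a log2 difference of -6.48 (SE 0.17) against -6.46 (SE 0.17) in NOD. The dendritic cell level was 0.266% of the B cell mean for Cd79a and 1.14% for Cd79b in NOD. The part of B cell RNA in these low values was not tested. Cd81, a tetraspanin of the B cell co-receptor complex that is made by many cell types, was lower in dendritic cells, with log2 differences of -1.53 (SE 0.06) and -1.47 (SE 0.06).

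Among the adaptors, related genes differed in opposite directions. Blnk, which encodes the B cell adaptor SLP-65 that links SYK to BTK and phospholipase C-gamma 2, was at 441, 446 and 461 CPM in NOD B cells and at 1.72, 1.89 and 4.16 in NOD dendritic cells. Lcp2, which encodes SLP-76, the related adaptor of T cells and myeloid cells, was at 16.4, 16.2 and 15.3 CPM in NOD B cells and at 288, 343 and 330 in NOD dendritic cells. Each gene separated the cell types without overlap, in opposite directions. The log2 difference was -7.43 (SE 0.22) for Blnk and 4.33 (SE 0.07) for Lcp2, with edgeR adjusted p-values of 5.10e-12 and 4.25e-14, and in NOD.Idd2 the differences were -7.53 and 4.39. Per kilobase of exon, Blnk made up 95.4% ± 0.258 (SD, n = 3) of the Blnk and Lcp2 total in NOD B cells and 0.593% ± 0.291 in NOD dendritic cells, and 95.8% and 0.621% in NOD.Idd2. Bank1, a scaffold that binds LYN and the inositol trisphosphate receptor in B cells, and Pik3ap1, which encodes BCAP, a related adaptor that recruits phosphoinositide 3-kinase, also moved in opposite directions. Bank1 was lower in dendritic cells by 4.19 on the log2 scale in NOD and 4.34 in NOD.Idd2, whereas Pik3ap1 was higher by 0.77 and 0.56. Bank1 was 74.2% of that pair's total per kilobase in NOD B cells and 8.43% in NOD dendritic cells. Grb2, which couples receptors to the Ras activator SOS and is made by most cells, differed least among the adaptors, with log2 differences of -0.27 (SE 0.05) and -0.38 (SE 0.06).

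Sequences of the promoter windows of Cd79a, Blnk and Lcp2 are shown because these genes had the largest differences between the cell types in the lower and the higher direction among those with a window, and that of Cd72 because it was the single member that differed between the strains. They come from RefSeq promoter windows on GRCm38.p6, read 5′ to 3′ on the gene's strand. For Cd79a, Lcp2 and Cd72 the bases that GENCODE M21 places in exons are left out. For Blnk exons of GENCODE M21 cover all 250 bases of the window, and the 30 bases shown around its octamer match are exonic there. Capitals mark matches on either strand to AGGAAGT (an Ets-type site, as bound by PU.1), ATGCAAAT (the octamer bound by Oct factors) and CAGGTG (an E-box).
Cd79a, chr7:24897247-24897380 (+): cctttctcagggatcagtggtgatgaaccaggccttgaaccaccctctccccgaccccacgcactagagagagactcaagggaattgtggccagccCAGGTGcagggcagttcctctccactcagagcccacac
Blnk, chr19:40994333-40994362 (-): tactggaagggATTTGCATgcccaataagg
Lcp2, chr11:34046678-34046919 (+): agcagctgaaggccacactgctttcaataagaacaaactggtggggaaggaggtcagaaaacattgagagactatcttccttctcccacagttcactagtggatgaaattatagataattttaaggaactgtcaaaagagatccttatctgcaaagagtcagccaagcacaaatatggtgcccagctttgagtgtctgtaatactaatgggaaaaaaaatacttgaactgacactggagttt
Cd72, chr4:43454629-43454876 (-): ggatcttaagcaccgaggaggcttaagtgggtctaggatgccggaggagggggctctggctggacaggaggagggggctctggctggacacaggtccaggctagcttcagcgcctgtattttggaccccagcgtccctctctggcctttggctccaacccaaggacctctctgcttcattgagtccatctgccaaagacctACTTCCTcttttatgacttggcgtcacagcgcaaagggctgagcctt

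In the full windows of 250 bases upstream, the Cd79a window held CAGGTG 154 bases and AGGAAGT 55 bases before the start, the latter in a part not printed. The Blnk window held the octamer on the opposite strand 130 bases before the start, as printed, and also AGGAAGT and CAGGTG. The Cd72 window held AGGAAGT on the opposite strand 49 bases before the start, and the Lcp2 window held none of the 3 motifs. Of the 38 genes 32 had such entries, with 43 promoter windows between them, and Nfatc1, Cd79b, Nfkb1, Lyn, Blk and Malt1 had none. AGGAAGT was in 15 of the 43 windows and in 7.69% of all 32851 promoter windows, CAGGTG in 16 and in 17.2%, and ATGCAAAT in 2, those of Blnk and Prkcb, and in 1.6%. These are matches of letters and show no binding.

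**Figure D2:**
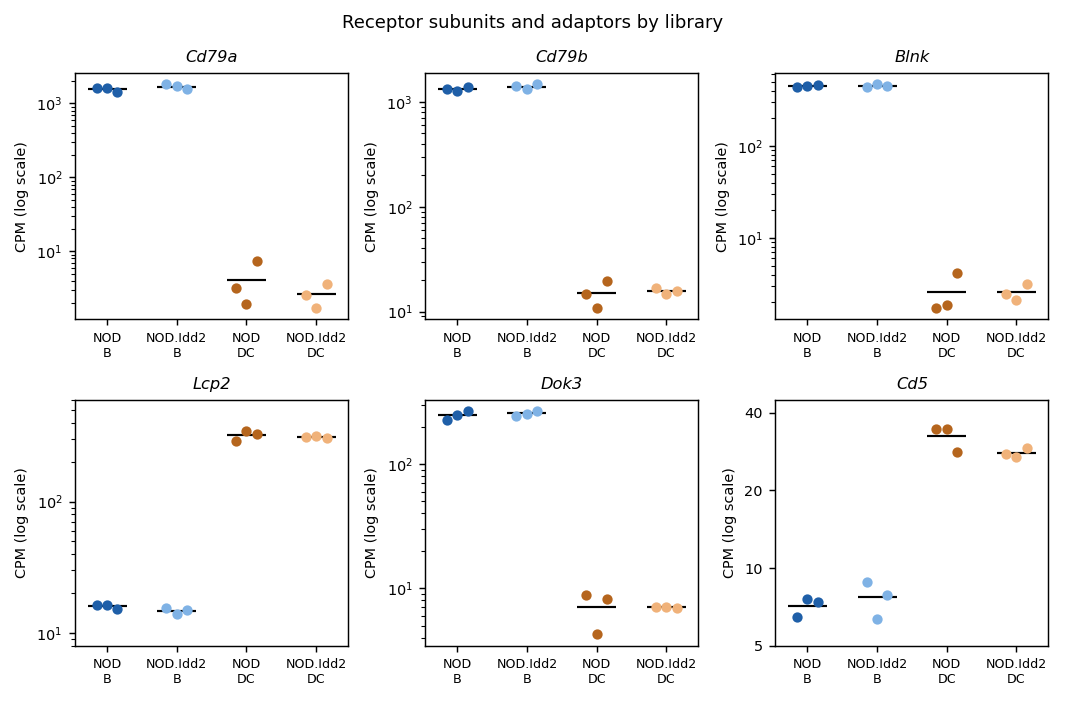
CPM (log scale) of Cd79a, Cd79b, Blnk, Lcp2, Dok3 and Cd5 in each of the 12 libraries, with the mean of each group of 3 as a line. B is B cells and DC dendritic cells. Lcp2 and Cd5 are higher in every dendritic cell library than in every B cell library, and the other 4 genes are lower.

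The inhibitory receptors divided into 3 that were lower and 2 that were higher in dendritic cells. Cd22, a sialic acid-binding lectin that recruits SHP-1, was lower by 2.23 on the log2 scale in NOD (SE 0.06) and by 2.27 in NOD.Idd2. It was at 405 to 453 CPM in NOD dendritic cells, 21.3% of its level in B cells. Siglecg, a related lectin gene, was lower by 1.19 and 1.23. Cd72, a lectin-like receptor that signals through SHP-1, was lower by 1.92 (SE 0.05) in NOD and by 2.45 (SE 0.05) in NOD.Idd2. Cd5 encodes a scavenger-type receptor that restrains antigen receptor signals in T cells and in B-1 cells. It was at 6.48, 7.57 and 7.40 CPM in NOD B cells and higher in each NOD dendritic cell library, at 34.7, 34.6 and 28.3. The log2 difference was 2.19 in NOD (SE 0.12, edgeR adjusted p = 2.94e-09) and 1.86 in NOD.Idd2. Of 19 T cell markers 8 differed between the NOD groups, with Cd4, Cd6, Cd8a, Icos and Tcf7 higher and Cd2, Lef1 and Zap70 lower in dendritic cells. The list's median difference was -0.34. Their sum was 214 to 224 CPM in NOD B cells and 601 to 661 in NOD dendritic cells. Cd3e, a subunit of the T cell receptor complex, was at 5.65, 7.42 and 6.24 CPM in NOD B cells and at 6.27, 3.20 and 5.74 in NOD dendritic cells. Dendritic cells also express Cd4 and Cd8a, and the part of T cells in the Cd5 level was not tested. Pirb, an inhibitory receptor for MHC class I, was at 81.8, 93.9 and 118 CPM in NOD B cells and at 408, 421 and 365 in NOD dendritic cells, a log2 difference of 2.02 (SE 0.14, edgeR adjusted p = 3.90e-08). Its value is uncertain because reads may be shared with the near-identical activating genes of the Pira family.

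Of the phosphatases and other negative regulators behind these receptors, 3 were higher and 3 lower in dendritic cells. Ptprc, which encodes CD45, the phosphatase that primes Src-family kinases, was higher in dendritic cells by 0.93 (SE 0.05) in NOD and 0.88 in NOD.Idd2. Ptpn22, a phosphatase that acts on Src-family kinases together with CSK, was higher by 0.94 and 0.80, and Inpp5d, which encodes the inositol phosphatase SHIP-1, by 0.58 and 0.53. Ptpn6, which encodes SHP-1, was slightly lower, with differences of -0.31 (SE 0.05) and -0.41 (SE 0.05). Csk, the kinase that switches Src-family kinases off, was lower by 0.92 and 1.07. Dok3, an adaptor that works with SHIP-1 and GRB2 to restrain calcium signalling, had the largest difference of this group, at 229, 247 and 266 CPM in NOD B cells and 8.78, 4.24 and 8.25 in NOD dendritic cells. Its libraries did not overlap between the cell types, and the log2 difference was -5.13 (SE 0.19) in NOD and -5.18 in NOD.Idd2.

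Among the kinases, Syk, Blk and Btk were lower in dendritic cells in both strains. Blk, a Src-family kinase gene of B cells, was at 489, 529 and 530 CPM in NOD B cells and at 33.7, 31.9 and 32.8 in NOD dendritic cells, with log2 differences of -3.98 (SE 0.06) in NOD and -4.08 in NOD.Idd2. Lyn, the other main Src-family kinase gene of B cells, which also phosphorylates the inhibitory receptors, was at 527 to 574 CPM in NOD B cells and 591 to 646 in NOD dendritic cells. Its difference of 0.17 (SE 0.05) passed in NOD (edgeR adjusted p = 0.00887) but not without NOD dendritic cell replicate 2 (0.0776), and in NOD.Idd2 it was 0.05 (SE 0.05). Fyn, another gene of that family, was at 95.8 to 98.5 CPM in NOD B cells and 97.9 to 107 in NOD dendritic cells, where the ranges overlapped, and its difference of 0.08 did not pass (edgeR adjusted p = 0.225). Syk, which starts the cascade from phosphorylated CD79 chains, was lower in dendritic cells by 0.72 (SE 0.09) and 0.68, and was still at 962 to 1259 CPM there in NOD. Btk, the kinase that activates phospholipase C-gamma 2, was lower by 1.36 (SE 0.04) and 1.38. Btk is X-linked, and the sexes of the cell types differ.

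Below the adaptors, 3 genes were higher and 3 lower in dendritic cells in both strains. Plcg2, the gene of phospholipase C-gamma 2, was lower in dendritic cells by 0.35 in NOD and 0.47 in NOD.Idd2. Pik3cd, the catalytic p110-delta subunit of phosphoinositide 3-kinase, was higher by 1.15 (SE 0.08) and 0.94, while its regulatory partner Pik3r1 did not pass in either strain (-0.14 and -0.10, SE 0.06). Vav1 and Vav2, exchange factors for Rac, differed in opposite directions, by -0.30 and 0.39 in NOD and by -0.28 and 0.21 in NOD.Idd2. Prkcb, which encodes protein kinase C-beta, was higher by 0.37 and 0.24. Rasgrp3, which activates Ras in response to diacylglycerol, was lower by 0.95 (SE 0.07) and 0.93.

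At the end of the pathway, Bcl10 and Malt1, partners in the complex that activates NF-kB, differed by -0.36 and 0.09 in NOD and by -0.45 and -0.01 in NOD.Idd2, and Malt1 did not pass in either. Nfkb1, the NF-kB subunit p105/p50, was higher in dendritic cells by 1.04 (SE 0.05) and 1.03, at 889 to 997 CPM in NOD dendritic cells and 437 to 475 in NOD B cells. Rel, which encodes c-Rel, differed by 0.13 (SE 0.06) in NOD and 0.19 (SE 0.06) in NOD.Idd2. The calcium-dependent factors separated: Nfatc1 was lower in dendritic cells by 0.82 and 0.91, and Nfatc2 higher by 1.44 and 1.41. Nfatc1 was 87.0% of their total per kilobase in NOD B cells and 58.3% in NOD dendritic cells. Cd38, an ectoenzyme that consumes NAD and modulates B cell receptor signals, was at 444, 483 and 429 CPM in NOD B cells and at 28.05, 20.9 and 25.4 in NOD dendritic cells, lower by 4.19 (SE 0.11) in NOD and 4.52 in NOD.Idd2.

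Levels of different genes were compared only per kilobase of merged exons. On that scale the receptor chains led in NOD B cells, with Cd79a at 1066 ± 72.5 CPM per kb (SD, n = 3) and Cd79b at 925 ± 46.7, ahead of Cd22 at 399 ± 24.4 and Ptpn6 at 320 ± 16.03. The first 2 differed by more than their SDs, and Cd22 was above Ptpn6 by more than theirs. Syk, Blk and Siglecg followed at 195 ± 13.3, 191 ± 8.70 and 188 ± 23.1 and did not differ beyond their SDs. The lowest were Cd5 at 1.45 and Lcp2 at 3.58 CPM per kb. In NOD dendritic cells the order began with Ptprc at 321 ± 21.0, Ptpn6 at 257 ± 9.05, Lyn at 151 ± 6.998, Syk at 118 ± 15.9 and Pik3cd at 113 ± 6.07, the last 2 within their SDs of each other. It ended with Blnk at 0.433, Cd79a at 2.84 and Dok3 at 2.88. Ptpn6 ranked 2 in dendritic cells and 4 in B cells. Merged exons include every annotated exon of a gene, and they span 18.3 kb for Ptprc and 18.0 kb for Malt1. Exons that are rarely used would lower such values, and their use was not tested.

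**Figure D3:**
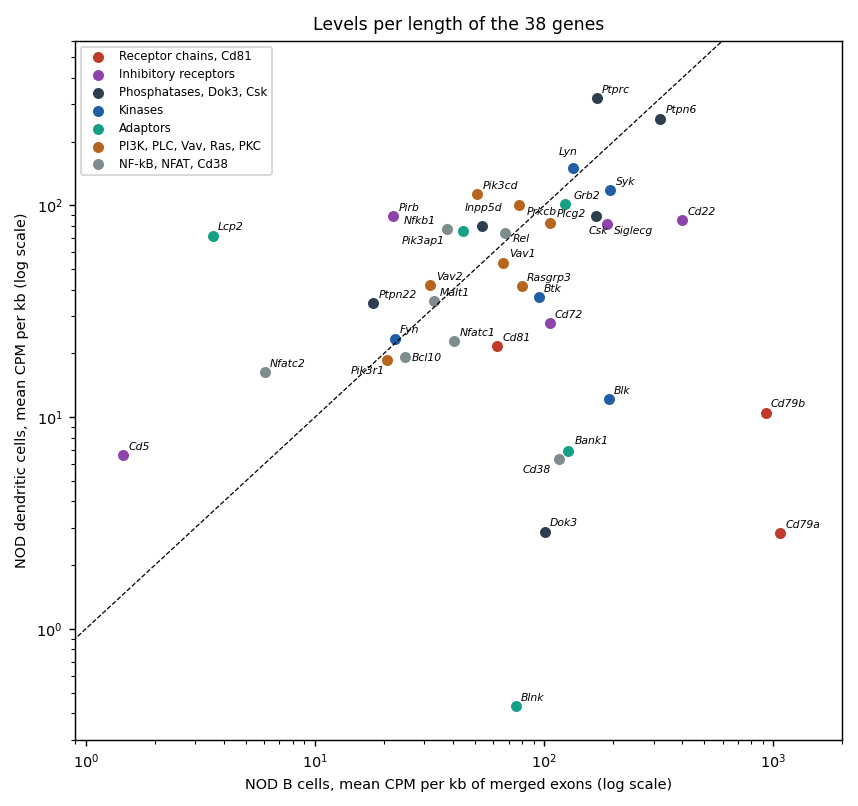
Mean level of each of the 38 genes per kilobase of merged exons in NOD B cells (x axis) and NOD dendritic cells (y axis), both on log scales, coloured by role; the dashed line marks equal levels. Cd79a and Cd79b lie at the right and low, Blnk lies lowest, and Lcp2 lies above the line at the left.

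In B cells, the cell type in which the pathway acts, none of the 38 genes passed the test between the strains. With edgeR 0 of 38 passed after Benjamini-Hochberg adjustment, beside 0.16% of all 15011 genes tested, 1 had an unadjusted p under 0.05 beside 6.4% of all genes, and DESeq2 and limma-voom also gave 0. The differences ran from -0.12 to 0.12 on the log2 scale, with 22 above 0 and 16 below, and their median was 0.01, as was that of all genes. Leaving out single libraries gave 13 to 24 below 0 and a median of -0.01 to 0.02, with 24 below 0 without NOD replicate 1, so the B cell differences had no steady direction. The 95% intervals of all 38 lay within 1.5-fold in either direction, the widest being that of Pirb (-0.29 to 0.53). With the replicate number as a block, which raised the share of all genes that passed to 1.04%, still 0 of the 38 passed.

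The largest differences in B cells were in genes of separate roles. Rasgrp3 was at 476, 465 and 458 CPM in NOD and at 413, 425 and 450 in NOD.Idd2, lower in each NOD.Idd2 library than in each NOD library, and it was the gene with an unadjusted p under 0.05. Its log2 difference was -0.12 (SE 0.05, 95% interval -0.24 to -0.01) with an edgeR adjusted p of 0.765. Pirb was at 81.8, 93.9 and 118 CPM in NOD and 88.7, 101 and 129 in NOD.Idd2, overlapping, with a difference of 0.12 (SE 0.17, edgeR adjusted p = 0.968) that became -0.05 to 0.27 when single libraries were left out. Cd79a, with the values given above, differed by 0.12 (SE 0.07, edgeR adjusted p = 0.840) and Cd79b by 0.08 (SE 0.06, edgeR adjusted p = 0.893), both with overlapping libraries. Bank1 and Pik3ap1 were higher in every NOD.Idd2 library than in every NOD library, by 0.04 and 0.08. Those 2 genes and Rasgrp3 were the ones without overlap, beside 6.8% of all genes higher and 6.04% lower in this way. Csk, which lies at chr9:57626646-57653631, is the single member on chromosome 9, where Idd2 maps, and it differed by 0.06 (SE 0.08) in B cells and -0.08 (SE 0.05) in dendritic cells.

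Replicate 3 of the B cells deviated in the same direction in both strains for several of these genes. Relative to the mean of replicates 1 and 2, 6 of the 38 were higher in replicate 3 by over 0.1 on the log2 scale in both strains, namely Cd79b, Cd22, Pirb, Dok3, Csk and Pik3cd, and 3 were lower, namely Cd79a, Grb2 and Cd38, and none moved by that much in opposite directions. Pirb changed most, by 0.43 in NOD and 0.44 in NOD.Idd2, and Cd79a fell by 0.17 in both. Without both replicate 3 libraries the count of genes that differed between the strains was again 0. Within groups the 38 genes were otherwise steady, with a median coefficient of variation of 4.58% in NOD B cells and 3.85% in NOD.Idd2 B cells, against 5.30% and 4.70% over all genes at 5 CPM or more.

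In dendritic cells a single member, Cd72, differed between the strains, and it was lower in NOD.Idd2. This was 1 of 38, beside 1.29% of all 14441 genes tested, or 0.623% that were lower and 0.665% that were higher, with 8 at an unadjusted p under 0.05 beside 11.3% of all genes. With the replicate block it was again 1, beside 1.48%. Small differences below 0 were common: 32 of the 38 lay below 0, or 84.2%, against 49.8% of all genes, and the median was -0.07 against 0.00. Leaving out single libraries gave 30 to 32 below 0 and a median of -0.10 to -0.05. The libraries did not overlap for 9 genes, all lower in NOD.Idd2, beside 9.41% of all genes lower and 7.06% higher in this way. These were Cd72, Ptpn6, Ptpn22, Csk, Blk, Fyn, Prkcb, Malt1 and Grb2, and other than Cd72 their differences were -0.14 to -0.04 and did not pass.

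**Figure D4:**
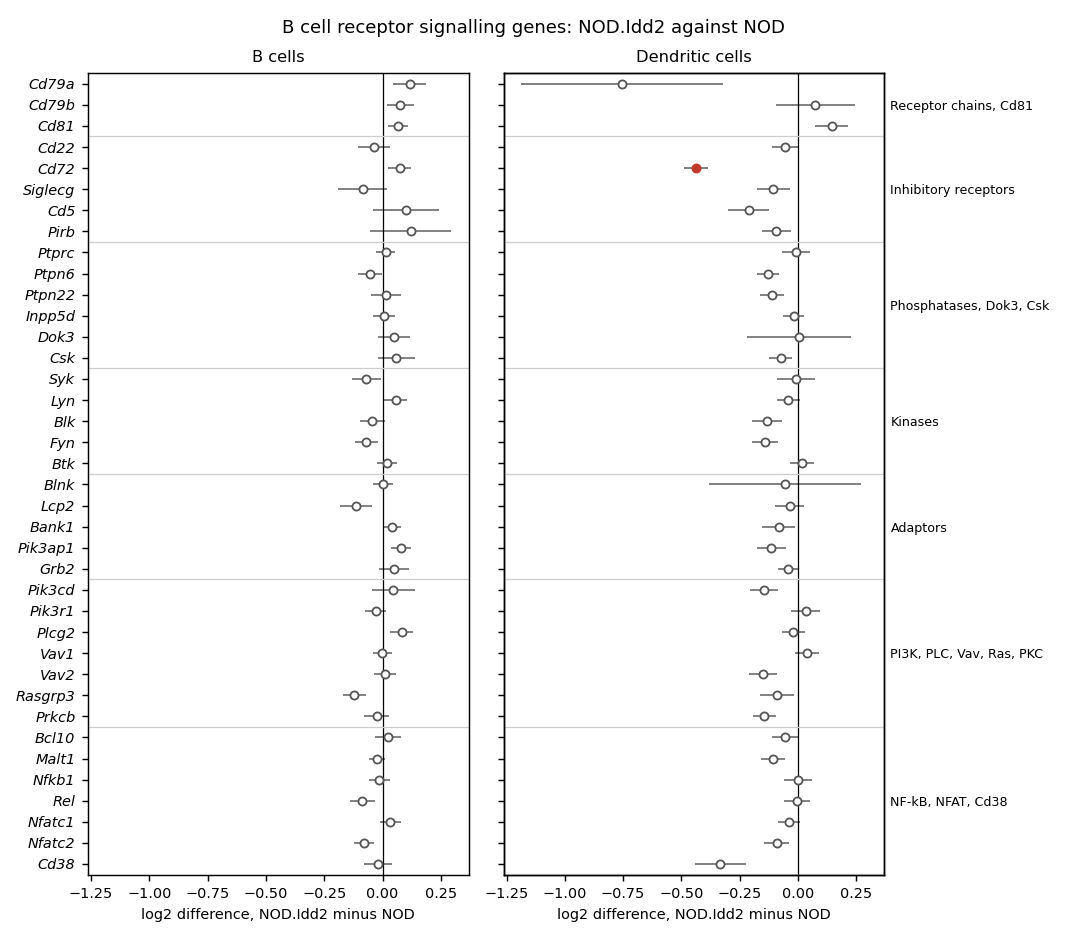
Log2 difference between NOD.Idd2 and NOD for each of the 38 genes in B cells (left) and dendritic cells (right), grouped by role. Points are fitted differences from 3 libraries per group, bars are 1 SE, and the filled red point has an adjusted p at or under 0.05. Cd72 in dendritic cells is the only filled point, and 32 of 38 dendritic cell points lie below 0.

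Cd72, at chr4:43446462-43454628 on the minus strand, encodes a receptor whose inhibitory motif recruits SHP-1 and whose known ligand is the semaphorin CD100. In dendritic cells it was at 94.8, 96.2 and 94.5 CPM in NOD and at 68.0, 72.7 and 67.3 in NOD.Idd2. Every NOD library was above every NOD.Idd2 library. The log2 difference was -0.44 (SE 0.05, 95% interval -0.55 to -0.33), or 1.36-fold lower, with an edgeR adjusted p of 0.00130, and it passed under every alternative tried (1.38e-08 to 0.0143) except a minimum of 1.5-fold, which it did not reach. In B cells Cd72 was at 344, 367 and 373 CPM in NOD and at 372, 387 and 383 in NOD.Idd2, overlapping, a difference of 0.07 (SE 0.05, edgeR adjusted p = 0.862). The difference between the strain effects of the cell types was -0.53 (SE 0.06, 95% interval -0.67 to -0.39) with an edgeR adjusted p of 0.00574, and Cd72 was the 1 of the 38 that passed this test, beside 0.109% of all 16588 genes, 0.0482% being lower, or 0.338% with the replicate block. It passed under every alternative tried there as well (3.18e-09 to 0.0496), except that no member reached 1.5-fold.

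Cd72 shares 1423 exon bases with Tesk1 on the opposite strand. Tesk1 was at 34.6 to 37.8 CPM in NOD dendritic cells and 32.1 to 35.2 in NOD.Idd2, a difference of -0.08 (SE 0.06, edgeR adjusted p = 0.711). Of 28 genes tested within 1 Mb on each side of Cd72, Melk was the 1 that differed, higher by 0.50 (edgeR adjusted p = 0.0455). Cd72 was at 26.4% of its B cell level in NOD dendritic cells and 18.2% in NOD.Idd2, while Cd79b was at 1.14% and 1.12%. The summed B cell markers were 1035 to 1242 CPM in NOD dendritic cells and 1036 to 1753 in NOD.Idd2. Of the 12 tested, 4 lay above 0 and 8 below, with a median of -0.11, and none differed. The summed 12 dendritic cell markers were 5374 to 5863 and 5377 to 5643, with 5 of 12 above 0, and Ffar2 was the 1 that differed (-0.26). The 14 markers of monocytes and macrophages summed to 1597 to 1874 CPM in NOD and 1961 to 2122 in NOD.Idd2, without overlap, with 6 of 14 above 0 and Lyz2 the 1 that differed (0.50). The 8 markers of marginal zone B cells summed to 868 to 929 and 811 to 835 without overlap, with 3 of 8 above 0 and Dtx1 the 1 that differed (-0.26). In further lists no gene passed, and small differences above 0 prevailed in all but that of B-1 cells. Of the B-1 cell markers tested, 1 lay above 0 and 5 below, with a median of -0.05. Of the 5 follicular B cell markers 3 lay above 0 and 2 below, with a median of 0.02. The 8 plasma cell markers summed to 151 to 199 CPM in NOD and 184 to 266 in NOD.Idd2, with 6 of 6 tested above 0 and a median of 0.54. The 10 natural killer cell markers summed to 142 to 175 and 156 to 166, with 9 of 9 above 0 and a median of 0.35. The 9 neutrophil markers summed to 21.1 to 30.3 and 24.9 to 35.1, with 6 of 7 above 0 and a median of 0.35. The 19 T cell markers summed to 601 to 661 and 596 to 623, with 15 of 19 above 0 and a median of 0.21. The 10 markers of plasmacytoid dendritic cells summed to 286 to 350 and 339 to 379, with 5 of 8 above 0. The part of these lists in the Cd72 difference was not tested.

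**Figure D5:**
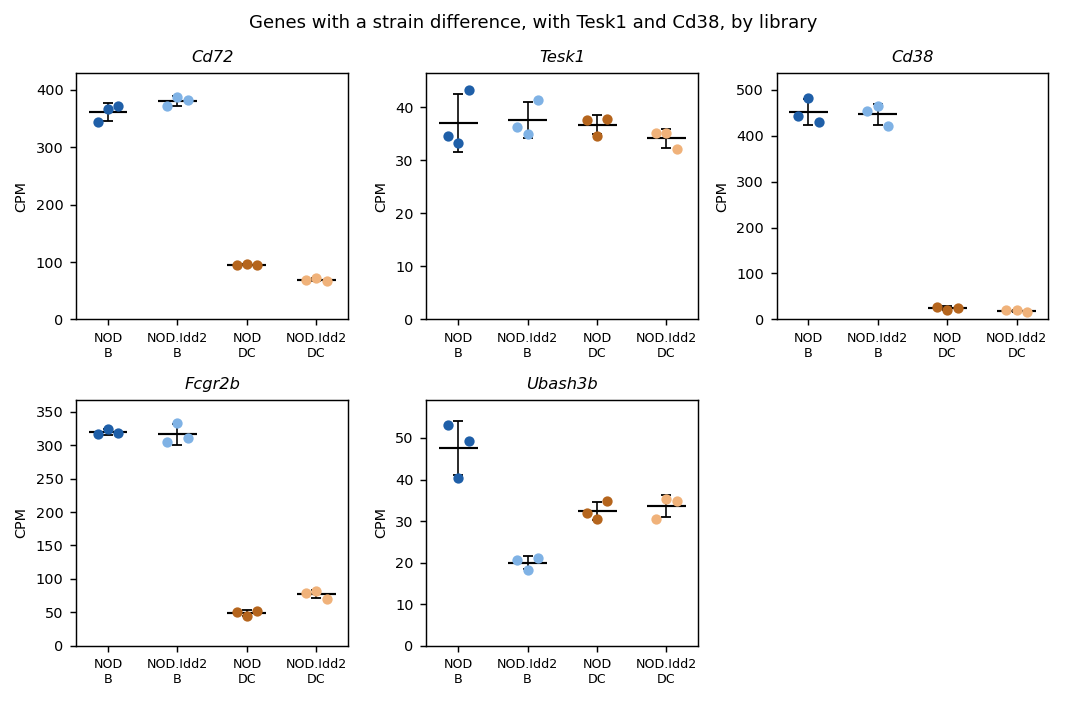
CPM in each library for Cd72, for Tesk1 on its opposite strand, for Cd38, and for Fcgr2b and Ubash3b, which differed between the strains among the other genes of the pathway. Points are libraries, lines are group means and bars are 1 SD (n = 3). The Cd72 dendritic cell libraries lie at 94.5 to 96.2 in NOD and 67.3 to 72.7 in NOD.Idd2, while in B cells the strains overlap.

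The other large differences in dendritic cells did not pass. Cd38 was at 28.05, 20.9 and 25.4 CPM in NOD and at 19.5, 21.1 and 16.8 in NOD.Idd2, overlapping by a single library, with a difference of -0.33 (SE 0.11, edgeR adjusted p = 0.232). Cd79a differed by -0.75 (SE 0.43, edgeR adjusted p = 0.567) at levels of 1.70 to 7.32 CPM, where NOD replicate 3 was the highest library. Both passed when no filter on low counts was applied (edgeR adjusted p = 0.0158 and 0.0102). Cd5 differed by -0.21 (SE 0.09, edgeR adjusted p = 0.372) and passed without NOD replicate 3. Cd79a varied most, and it had a coefficient of variation of 68.4% in NOD dendritic cells and 36.8% in NOD.Idd2, and Blnk also exceeded 20% in both, as did Cd79b and Dok3 in NOD.

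The same fits gave values for 98 other genes of the pathway and 25 genes that the receptor induces. In B cells 1 of the 98 differed between the strains, beside 0.16% of all genes. This was Ubash3b, which encodes STS-1, a phosphatase that restrains SYK and its relatives. It was at 53.1, 40.4 and 49.2 CPM in NOD and at 20.7, 18.1 and 21.2 in NOD.Idd2, all lower, with a difference of -1.25 (SE 0.11, edgeR adjusted p = 0.0111) that no longer passed without NOD.Idd2 replicate 1 (0.0701) or replicate 2 (0.0810). Ubash3b lies at chr9:41011098-41161697, on the chromosome that carries Idd2, and in dendritic cells it differed by 0.06 (SE 0.08).

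In dendritic cells 1 of the 98 differed, beside 1.29% of all genes. Fcgr2b, the inhibitory IgG receptor that recruits SHIP-1, was at 50.7, 44.1 and 52.0 CPM in NOD and 78.5, 81.7 and 70.4 in NOD.Idd2, higher without overlap by 0.67 (SE 0.07, edgeR adjusted p = 0.000676). In B cells it was at 317, 325 and 319 CPM in NOD and 305, 333 and 311 in NOD.Idd2, overlapping, a difference of -0.02 that did not pass. Exons of Fcgr2b share 155 bases with the antisense gene Gm38204. Of the induced genes, such as Nr4a1, Egr1, Myc and Cd69, 0 of 24 tested in B cells and 0 of 25 in dendritic cells passed. The shares of all genes that passed were 0.16% and 1.29%. At an unadjusted p under 0.05 were 1 and 3 induced genes, beside 6.4% and 11.3% of all genes. DESeq2 and limma-voom gave 0 in both cell types for the induced genes. Between the cell types in NOD, 88 of the 98 pathway genes differed, 36 higher and 52 lower, and 23 of the 25 induced genes, 16 higher and 7 lower, beside the 76.4% of all genes, with 37.7% higher and 38.7% lower.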

How the data were processed

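The 12 libraries were poly(A)-selected (Trizol, KAPA RNA HyperPrep), per the labels' protocols. The authors deposited raw counts per gene symbol, made with STAR on GRCm38 per the submitters' processing notes; for the counting tool, its annotation and the use of strand, nothing is given in the sources used here. A deposited table of normalized counts was not used. Groups and replicate numbers came from the titles.

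CPM values are counts divided by TMM-scaled library sizes over all 12 libraries. Groups were tested with the quasi-likelihood F-test of edgeR 4.0.16 (R 4.3.3) after filterByExpr (minimum count 10, minimum total 15), with Benjamini-Hochberg adjustment over all genes tested and a threshold of 0.05: on the 6 libraries of a cell type for the strains, and on all 12 for the cell types and for the difference of strain effects. The SE is the log2 difference over the square root of F. The tests were checked on simulated counts of independent libraries, which held no shared shift of B cell replicate 3. Positions and exon lengths are from GENCODE M21 (GRCm38). Intervals cover the spread between libraries.

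No pair of libraries in a group agreed within sampling noise (lowest chi-square per gene 3.28). The main fits used no replicate block, and replicate numbers served as pairs only in an alternative. In B cells the log2 deviations of libraries with the same number correlated at 0.837, 0.688 and 0.922, each over 0.1. So did those of NOD replicate 2 with NOD.Idd2 replicate 1 (0.684) and of NOD replicate 1 with NOD.Idd2 replicate 2 (0.606). The labels state no pairing.

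The 38 genes, the lists and the rule were chosen with earlier results of these data known. Library values were given for genes that passed in a strain comparison, for the 3 largest strain differences per cell type, for Cd79a and Cd79b, and for the 3 largest cell-type differences in each direction. Values for Dok3, Blk, Cd38, Bank1 and other members, the gene pairs and the motifs were chosen after seeing values. Tools tried instead were DESeq2 1.42.0 and limma-voom (limma 3.58.1). Other alternatives were RLE factors, no filter, a filter of 1 CPM in 3 libraries, fitting more or fewer libraries, a minimum of 1.5-fold, the replicate block, dropping every library in turn and, chosen after seeing the data, dropping the pair of B cell libraries numbered 3. Some listed genes are not reported here and were left out of the lists and their counts.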

Additional observations from a re-analysis of the deposited data

Results flagged for a closer look

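For 3 genes of the pathway the strain effect differed between the cell types in the quasi-likelihood test of edgeR on all 12 libraries, adjusted by the Benjamini-Hochberg method, given here as the effect in dendritic cells minus that in B cells. Among the 38 genes this was Cd72, with -0.53 on the log2 scale (SE 0.06, adjusted p = 0.00574). Among the 98 other pathway genes they were Fcgr2b, with 0.67 (SE 0.10, adjusted p = 0.0232), and Ubash3b, with 1.30 (SE 0.15, adjusted p = 0.00375). Over all genes 0.109% passed this test. Fcgr2b lost the call in 5 of 19 alternatives, at adjusted p-values of 0.0592 to 0.105 in the same test of edgeR. These were the fits without NOD B cell replicate 1 or 2, NOD.Idd2 B cell replicate 1, or NOD.Idd2 dendritic cell replicate 1 or 2. Because the cell types also differed in sex, strain effects that depend on cell type and on sex cannot be told apart for the 3 genes.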

How the results depend on the processing

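The counts of the 38 genes were 0 in B cells under all 15 alternatives and stayed within 1.5 times of 34 between the cell types. In dendritic cells the strain count was 3 with no filter on low counts and 0 with a 1.5-fold minimum, and 1 to 2 with a library left out, where 2 came without NOD replicate 3. The count for the difference of strain effects was 0 with a 1.5-fold minimum. Of the other pathway genes, 0 to 1 passed in B cells with a library left out. In dendritic cells 3 passed with DESeq2, 6 with no filter, and 1 to 3 with a library left out, where 3 came without NOD replicate 1 or 3. Of the induced genes 2 passed in dendritic cells with no filter. Shares of all genes under these alternatives are not given here, so these counts cannot be told apart from a change over all genes. Between the cell types in NOD, Malt1 passed under 6 of 13 alternatives, Rel under 5 and Pik3r1 under 3. The causes were not tested. No direction of a gene that differed turned.

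With the replicate block, 0 of the 38 passed in B cells, 1 in dendritic cells, 1 for the difference of strain effects and 34 between the cell types in either strain, as without it, so it changed no call of a member. Over all genes it moved the B cell count from 24 to 156. In dendritic cells same-numbered libraries correlated at -0.01, 0.06 and 0.03, and the labels state no pairing. The count over all genes there was 214 with the block and 186 without it.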
